A study of Mus musculus with 7 samples.

Results

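Vascular endothelial cells (vascular ECs) of the developing mouse heart were taken as the cells that the study's final annotation places in that type, in the CD1 table and in the C57BL/6 table. Of 52881 wild type cells in both tables, 2631 were vascular ECs, 1180 of 27445 cells in CD1 and 1451 of 25436 in C57BL/6. Cells that the study marked for exclusion, 79 in C57BL/6 and 0 in CD1, were left out. The 0 does not mean that nothing was dropped in CD1, since vascular EC sub-clusters had already been removed there. In CD1 the members formed a single cluster of the study's clustering of all cells, cluster 7, and in C57BL/6 they were the 1053 cells of cluster 10 and the 398 cells of cluster 19. The annotation rested on *Fabp4*, which carries fatty acids into the endothelium of capillaries, and on the endothelial adhesion gene *Pecam1*. *Cdh5*, which codes for the cadherin of endothelial junctions, is a further marker of the type. The tables used here hold a line per cell and no gene values, so the label could not be set against these genes.

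The hearts were wild type, without transgene or treatment, and were cut into left and right atrium (LA, RA) and left and right ventricle (LV, RV). Each combination of stage and zone was 1 sample in an experiment, pooled from several hearts, and the atrioventricular canal and the septum went with the LV. CD1, an outbred stock, was profiled at 18 stages from embryonic day E9.5 to postnatal day P9 in 3 MULTI-seq experiments, in which every sample receives a lipid-anchored DNA barcode before all samples are loaded together. These covered E9.5 to P3, E18 with P1, and P2 to P9. C57BL/6, an inbred strain, was profiled at 17 stages in 2 experiments, E10.5 to P4 and P5 to P9. No experiment held both strains.

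The coronary vessels begin as a plexus of endothelial sprouts on and in the ventricular wall, which later connects to the aorta, is remodelled into arteries, capillaries and veins, and is covered by pericytes and smooth muscle cells. Its endothelium is known to descend from the sinus venosus and from the endocardium. Endocardial ECs, the other large endothelial population of the heart, line the chambers and are in place before the first coronary vessel.

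Samples held between 6 and 3213 cells other than cardiomyocytes (CMs), and the vascular ECs had between 2003 and 80021 UMIs per cell. CM types were used to check the sides, since atrial CMs mark atrial tissue. Before E12.5, 303 of 384 CMs in atrial samples of CD1 and 22 of 55 in C57BL/6 were annotated as atrial. From E12.5 on, 6 of the 102 samples with at least 5 CMs held mostly CMs of the other side. One was the CD1 LA at P2 of the E9.5 to P3 experiment, where 26 of 40 CMs were ventricular. The other 5 were the C57BL/6 LV and RV at P7 and P8 and the LV at P9, where 63 of 64 CMs were atrial. The side and stage comparisons that rest most on these 6 samples are also given without them. Samples with under 5 CMs were not checked and stay in those comparisons. Among them, 4 of 4 CMs were atrial in the C57BL/6 LV at P2, 1 of 1 in its LV at P5 and 2 of 2 in its RV at P9, against 0 of 3 in its RV at P5. Over all zones of the C57BL/6 experiment P5 to P9, 12 of 424 CMs were annotated as ventricular. Cell barcodes found in more than 1 well numbered 76 in CD1 and 63 in C57BL/6. Vascular ECs carried 11 and 3 of these, and none was a vascular EC in both wells.

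Cells annotated as vascular ECs were found at E10.5 in both strains, which is the earliest stage profiled in C57BL/6. In choosing a stage for its mutants, the paper puts the start of vascular EC development at E12.5. Elsewhere it reports *Cldn5* in vascular ECs from E10.5 on. The label of the few cells before E12.5 could not be checked against genes here. In CD1 at E9.5, 0 of 182 non-myocytes were vascular ECs, which allows a share of up to 1.65%. At E10.5 there were 4 of 275, or 1.45%, a share under the E9.5 limit, so a difference between E9.5 and E10.5 was not detectable at this depth. The E10.5 share has an exact (Clopper-Pearson) 95% interval of 0.398 to 3.68%, and at E11.5 there were 10 of 446, or 2.24% (1.08 to 4.08%). These intervals, and the limits from a count of 0, cover counting error only. In C57BL/6 there were 6 of 331 at E10.5 (1.81%, 0.668 to 3.90%) and 0 of 197 at E11.5, which allows up to 1.52%. The E11.5 value was thus lower than the one before it, but the interval at E10.5 reaches below the limit at E11.5, so no fall was detectable at this depth. From E11.5 in CD1 and from E12.5 in C57BL/6, every stage held at least 10 vascular ECs.

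The early cells were not confined to the ventricles. At E10.5 in CD1, 2 were in the LV and 2 in the RA, though 5 of the 7 CMs in the atrial samples of that stage were annotated as ventricular. At E11.5, 6 of 116 non-myocytes in the RV, 2 of 162 in the LV, 2 of 58 in the LA and 0 of 110 in the RA (up to 2.73%) were vascular ECs. At E12.5 most were in the ventricles, with 13 of 101 in the LV and 15 of 165 in the RV against 2 of 79 in the RA and 0 of 37 in the LA (up to 8.11%). In C57BL/6 at E12.5, the LV and the RV held 12 each, of 360 and 587 non-myocytes, and the LA and the RA held 0 of 15 (up to 20%) and 0 of 51 (up to 5.88%).

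In the ventricles the share of vascular ECs among non-myocytes was larger at each stage from E12.5 to E16.5 than at the stage before in CD1, and in C57BL/6 at each of these but E15.5. The mean of LV and RV in CD1 was 3.20% at E11.5, 11.0% at E12.5, 15.1% at E13.5, 17.6% at E14.5, 22.3% at E15.5 and 27.3% at E16.5. It was 25.6% ± 2.26 (SD, n = 4 stages) over E15.5 to E18 and 22.0% ± 5.85 (n = 8) over P0 to P9, and the postnatal means ran from 13.1% at P4 to 28.9% at P9. The corresponding means in C57BL/6 were 2.69% at E12.5, 6.11% at E13.5, 17.7% at E14.5, 16.3% at E15.5 and 28.4% at E16.5. They averaged 22.9% ± 5.06 (n = 4) over E15.5 to E18.5 and 26.7% ± 7.99 (n = 8) over P1 to P9, and without the samples whose CMs were mostly atrial the latter was 28.8% ± 7.87 (n = 6). At E12.5 and at E13.5 the ventricular mean of C57BL/6 lay below that of CD1, and at E14.5 the strains lay within 1 point of each other.

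**Figure D1:**
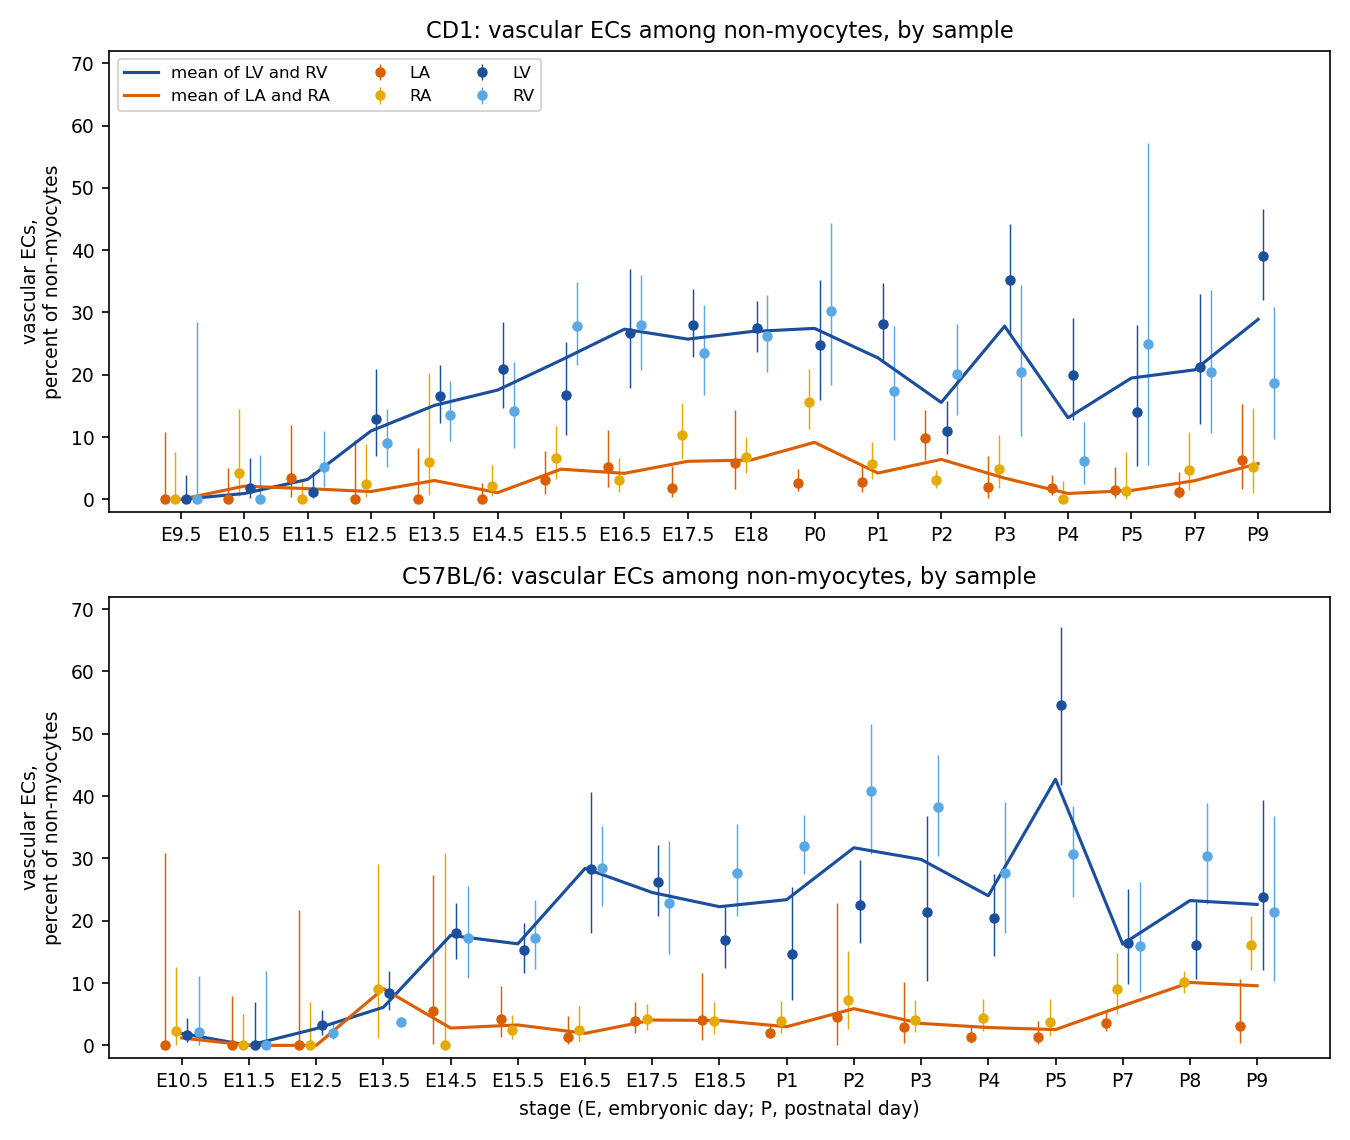
Vascular ECs as a percent of non-myocytes (y axis) in each zone at each stage (x axis) in CD1 and C57BL/6, with exact 95% binomial intervals as bars and lines through the means of both ventricles and of both atria. The ventricular line lies above the atrial line from E11.5 on in CD1 and from E14.5 on in C57BL/6, and the highest sample is the C57BL/6 LV at P5, at 54.7%.

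The relation with stage was tested over stages, with Spearman's rho and Pearson's r, a two-sided permutation test and Benjamini-Hochberg adjustment over 10 relations. In the ventricles rho was 0.62 in CD1 (r = 0.66, n = 18 stages, permutation p = 0.00722 for rho and 0.00292 for r, adjusted p = 0.0148 and 0.00730). In C57BL/6 it was 0.60 (r = 0.71, n = 17, permutation p = 0.0125 and 0.00128, adjusted p = 0.0179 and 0.00427). With the 2 outermost stages removed, r was 0.53 and 0.70. Within the first experiment of each strain rho was 0.79 (E9.5 to P3, r = 0.77, n = 13) and 0.86 (E10.5 to P4, r = 0.89, n = 13). Without the C57BL/6 samples whose CMs were mostly of the other side rho was 0.78 (n = 15, adjusted permutation p = 0.00900). The relation rested on the earliest stages: without those before E12.5, rho in the ventricles was 0.34 in CD1 and 0.42 in C57BL/6, with adjusted permutation p = 0.310 and 0.242. The other 2 CD1 experiments together, with 7 stages from E18 on, gave 0.07 (exact permutation p = 0.906).

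In the atria vascular ECs stayed a small part of the non-myocytes. Over the samples from E12.5 on, the atrial share had a median of 3.08% (0 to 15.7%, 30 samples) in CD1 and 3.91% (0 to 16.1%, 28 samples) in C57BL/6. The ventricular medians were 20.7% (6.19 to 39.1%, 30 samples) and 21.4% (2.04 to 54.7%, 30 samples). Over all stages, no vascular EC was found in 8 of 36 atrial samples of CD1 and 6 of 32 of C57BL/6. The ventricular counts were 3 of 36 and 2 of 34. From E12.5 on it was 4 of 30 and 3 of 28 atrial samples, and 0 of 30 ventricular samples in each strain. The atrial share rose with stage in C57BL/6 (rho = 0.63, r = 0.60, n = 17, permutation p = 0.00740 and 0.0106, adjusted p = 0.0148 and 0.0143). In CD1 the relation did not pass the test (rho = 0.34, r = 0.35, n = 18, permutation p = 0.173 and 0.152, adjusted p = 0.193 and 0.169). Without the 2 outermost stages r was 0.47 in C57BL/6 and 0.17 in CD1. Within the first experiments both calls changed: rho was 0.79 in CD1 (r = 0.76, n = 13, unadjusted permutation p = 0.00230 and 0.00267), and 0.51 in C57BL/6 (r = 0.32, n = 13, unadjusted permutation p = 0.0778 and 0.294). The C57BL/6 relation did not pass without the stages before E12.5 (rho = 0.48, adjusted permutation p = 0.185) or with blood cells left out of the non-myocytes (rho = 0.39, adjusted permutation p = 0.151). Whether the strains differ in this relation was not tested.

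The highest atrial shares were in single samples of both strains. The RA of CD1 at P0 held 37 vascular ECs among 236 non-myocytes (15.7%, 11.3 to 21.0%), while the LA of the same stage held 10 of 378 (2.65%, 1.28 to 4.81%). In C57BL/6 the RA held 119 of 1179 (10.1%, 8.43 to 11.96%) at P8 and 48 of 299 (16.1%, 12.1 to 20.7%) at P9. At P8 and P9 the CMs of these RA samples were 87 of 87 and 94 of 102 atrial. The CD1 LA at P2 held 18 of 121 (14.9%) in the experiment where most of its CMs were annotated as ventricular and 5 of 114 (4.39%) in the other experiment, where 148 of 175 CMs were atrial.

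At 16 of 18 stages in CD1 and 15 of 17 in C57BL/6, vascular ECs made up a larger share of the ventricular than of the atrial non-myocytes. The ventricular share averaged 18.1% ± 9.40 (SD over 18 stages) in CD1 and the atrial share 3.62% ± 2.45, a difference of 14.49 points ± 7.92. In C57BL/6 they averaged 19.6% ± 11.6 and 4.13% ± 3.0996 over 17 stages, a difference of 15.498 points ± 11.3. An exact permutation test that flips the sign of the difference at each stage gave p = 3.05e-05 and p = 0.000122, adjusted over 6 comparisons to 0.000183 and 0.000366. The atria were higher at E10.5 in CD1, with 2 cells on each side, and at E13.5 in C57BL/6, where the atrial value came from 2 cells in an RA of 22 non-myocytes. At E9.5 in CD1 and E11.5 in C57BL/6 both sides were at 0. Without the 6 samples whose CMs were mostly of the other side, the differences were 14.6 and 15.9 points. In the second C57BL/6 experiment alone (P5 to P9), the difference averaged 19.1 points and was positive at 4 of 4 stages, for which the smallest possible p is 0.125. It was widest at P5, with 42.7% in the ventricles and 2.53% in the atria. At P7, P8 and P9 the ventricles held 16.3, 23.2 and 22.6% and the atria 6.35, 10.1 and 9.57%. Both ventricular samples at P7 and P8 and the LV at P9 are among those whose CMs were mostly atrial.

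E16.5 is given as an example of a stage where the intervals of single samples did not overlap between the sides. At that stage, 24 of 90 non-myocytes in the LV of CD1 (26.7%, 17.9 to 37.0%) and 40 of 143 in the RV (28.0%, 20.8 to 36.1%) were vascular ECs, against 6 of 114 in the LA (5.26%, 1.96 to 11.1%) and 6 of 193 in the RA (3.11%, 1.15 to 6.64%). In C57BL/6 the LV held 19 of 67 (28.4%, 18.01 to 40.7%) and the RV 58 of 204 (28.4%, 22.4 to 35.2%), and the LA 2 of 149 (1.34%, 0.163 to 4.76%) and the RA 4 of 159 (2.52%, 0.690 to 6.32%). The intervals of the ventricular samples lay above those of the atrial samples in both strains. At P9 in C57BL/6 they did not, with 10 of 42 in the LV (23.8%, 12.1 to 39.5%) and 9 of 42 in the RV (21.4%, 10.3 to 36.8%) against 16.1% in the RA. That LV is one of the samples whose CMs were mostly atrial. In CD1 the intervals of the sides overlapped at P0, with 11.3 to 21.0% in the RA and 16.0 to 35.3% in the LV. The stages with and without overlap were not counted.

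Within a side, left and right did not differ beyond the spread between stages. The LV held 2.22 points more than the RV in CD1 (19.21% and 16.995%, SD of the difference 8.84, higher at 11 of 18 stages, exact permutation p = 0.303, adjusted p = 0.303). It held 2.95 points less in C57BL/6 (18.1% and 21.1%, SD 10.497, higher at 7 of 17 stages, exact p = 0.264, adjusted p = 0.303), and -2.77 points, LV minus RV, without the samples whose CMs were mostly of the other side. In C57BL/6 the RV at E13.5 is the largest sample, with 121 vascular ECs among 3213 non-myocytes (3.77%), so that over all cells, without equal weight for each stage, the RV came to 11.503% and the LV to 15.1%. The difference LA minus RA was -1.94 points in CD1 (2.65% and 4.59%, SD 4.53, lower at 11 of 18 stages, exact p = 0.0852, adjusted p = 0.159). In C57BL/6 it was -1.72 points (2.54% and 4.25%, SD 3.98, lower at 10 of 15 stages, exact p = 0.106, adjusted p = 0.159). Single stages and filters moved the last comparison across the threshold. For C57BL/6 the difference was -2.24 points without E14.5 (adjusted exact permutation p = 0.0156) and -2.24 to -2.41 points under 3 other filters (adjusted exact p = 0.0215 to 0.0312). In CD1 it was -2.45 points without P2 (adjusted exact p = 0.0372) and -2.24 points without the LA sample at P2 whose CMs were mostly ventricular (adjusted exact p = 0.0506).

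Averaged over matched stages, the share of non-myocytes did not differ between the strains beyond the spread between stages. Over 16 shared stages, counting E18 and E18.5 as the same stage, the mean over zones was 11.1% ± 4.91 in CD1 and 11.54% ± 6.40 in C57BL/6. The difference of -0.471 points (SD 4.57) had an exact permutation p = 0.699 (adjusted p = 0.841) and was positive at 10 of 16 stages. By stage it ran from 4.78 points at E12.5 to -12.2 points at P5. It was negative at E10.5, at E14.5 and at each stage from P2 to P5. The difference between ventricles and atria was 15.2 points in CD1 and 15.6 in C57BL/6 at the 16 shared stages (difference -0.489, SD 9.44, exact p = 0.841). As a share of all cells, CMs included, the difference CD1 minus C57BL/6 was -2.40 points (exact permutation p = 0.0141, adjusted p = 0.0282). Strain and experiment cannot be told apart here. The final label was also made separately in each strain, and the removal of cells before it differed between them. The part of these in the comparison was not tested.

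Samples of the same stage and zone that were profiled in 2 experiments show how far a share moves between experiments. For 8 such samples of CD1, at P1 and P2, the shares differed by 2.02 to 10.49 points, with a median of 3.30. The LV at P1 held 49 of 171 in one experiment and 10 of 39 in the other (28.7% and 25.6%), and the RV 9 of 43 and 4 of 32. The LA at P2 was the pair with the widest gap. Over all zones, the share was 9.54 to 12.53% in the 5 wells of the E9.5 to P3 experiment, with 593 to 2527 non-myocytes each, and 7.95 to 9.14% in the 4 wells of the E10.5 to P4 experiment, with 2506 to 3277. The repeated samples are single zones with 26 to 424 non-myocytes, fewer than any of these wells, and come from separate experiments. The wells of an experiment were loaded from the same pooled samples, so they do not show the spread between experiments. The reason for the gaps was not tested.

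Set against the endocardial ECs alone, cells annotated as vascular ECs changed from a minority to the majority of ventricular endothelium. The paper reports *Fabp4*, on which the label rested, in endocardial ECs too at late embryonic and neonatal stages. How far this bears on the split between both types at those stages was not tested, since no gene values were at hand. In CD1 ventricles they made up 0% of both endothelial types at E9.5, 4% at E10.5, 9.27% at E11.5, 31.6% at E12.5, 42.5% at E13.5 and 66.3% at E14.5. They outnumbered endocardial ECs in the ventricles at all 13 stages from E14.5 to P9. The ventricular values in C57BL/6 were 16% at E10.5, from 4 of 25 endothelial cells in the LV alone, 8.07% at E12.5, 15.8% at E13.5, 47.7% at E14.5 and 51.5% at E15.5, and vascular ECs were in the majority at the 12 stages from E15.5 on. Without the samples whose CMs were mostly atrial, ventricular samples remained at 10 of these stages, each with a majority. At P9 only the RV remained, which was not checked and where 2 of 2 CMs were atrial. The highest ventricular value in C57BL/6 was 97.6% at P5.

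The atria never reached that point. At no stage did vascular ECs outnumber endocardial ECs in the atria of either strain, and the atrial values ran from 0 to 19.1% in CD1 and from 4.92 to 23.5% in C57BL/6. At stages with both sides, the ventricular share of endothelial cells averaged 63.6% ± 20.7 and the atrial 9.63% ± 5.66 in CD1 (15 stages), and 68.0% ± 19.9 and 12.53% ± 5.93 in C57BL/6 (13 stages). The differences were 54.0 and 55.5 points, higher in the ventricles at 15 of 15 and 13 of 13 stages (exact permutation p = 6.10e-05 and 0.000244, the smallest that these numbers of stages allow, adjusted over both to 0.000122 and 0.000244). Without the samples whose CMs were mostly of the other side they were 54.3 (15 stages) and 55.8 points (11 stages). The denominator of this share holds no CMs, fibroblasts or blood cells. Their capture may still bear on which samples reached the minimum of 10 endothelial cells. Whether vascular and endocardial ECs were recovered alike on both sides was not tested.

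Averaged over zones, the share of endothelial cells rose with stage (CD1 rho = 0.60, r = 0.59, n = 18, permutation p = 0.00963 and 0.0115, adjusted p = 0.0160 and 0.0143; C57BL/6 rho = 0.79, r = 0.80, n = 16, permutation p = 0.000400 and 0.000120, adjusted p = 0.00200 and 0.000600). Without the 2 outermost stages r was 0.43 and 0.82, and within the first experiments rho was 0.58 (n = 13) and 0.81 (n = 12). Early stages had enough endothelial cells only in some zones and the CD1 stage P5 only in the atria. Over the stages with both sides, rho was 0.64 in CD1 and 0.77 in C57BL/6 (adjusted permutation p = 0.0418 and 0.0218). With all cells of a stage pooled it was 0.30 and 0.44 and did not pass the test (adjusted permutation p = 0.259 and 0.141). Without the samples whose CMs were mostly of the other side, it was 0.46 in C57BL/6 (adjusted permutation p = 0.0984). Over all non-myocytes and zones the share of vascular ECs had rho = 0.57 in CD1 (r = 0.63, n = 18, permutation p = 0.0151 and 0.00566, adjusted p = 0.0189 and 0.0102). In C57BL/6 rho was 0.80 (r = 0.82, n = 17, permutation p = 0.000190 and 4.00e-05, adjusted p = 0.00190 and 0.000400). Without the 2 outermost stages r was 0.49 and 0.80, and within the first experiments rho was 0.80 and 0.85 (n = 13 each). With all cells of a stage pooled, which gives weight to large samples, rho was 0.36 and 0.53 (adjusted permutation p = 0.173 and 0.0606). Without the samples whose CMs were mostly of the other side it was 0.58 and 0.55 (adjusted permutation p = 0.0229 and 0.0324), and in CD1 without the stages before E12.5 it was 0.26 (adjusted p = 0.442).

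Pericytes, the mural cells that wrap capillaries, were counted against the vascular ECs of the same stage. In CD1 the ratio of pericytes to vascular ECs was 0.10 at E11.5, 0.13 at E12.5, 0.16 at E13.5 and 0.18 at E14.5, lay between 0.22 and 0.36 from E15.5 to E18, and had a mean of 0.46 ± 0.31 (SD, n = 8 stages) after birth. The highest values were 28 pericytes to 34 vascular ECs at P4 and 12 to 12 at P5. The ratio in C57BL/6 was 0.042 at E12.5, 0.15 at E13.5 and 0.21 at E14.5, reached 0.60 at E18.5, and had a postnatal mean of 0.26 ± 0.10 (n = 8). The ratio rose with stage in CD1 (rho = 0.73, r = 0.62, n = 16 stages, permutation p = 0.00180 and 0.00615, adjusted p = 0.00600 and 0.0102). In C57BL/6 it did not pass the test (rho = 0.23, r = 0.23, n = 15, permutation p = 0.403 and 0.425, adjusted p = 0.403 and 0.425). Without the 2 outermost stages r was 0.72 and 0.047. Within the first experiments rho was 0.62 (r = 0.56, n = 11, permutation p = 0.0486 and 0.0748) and 0.40 (r = 0.36, n = 11, permutation p = 0.225 and 0.280), and the difference between the strains was not tested.

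**Figure D2:**
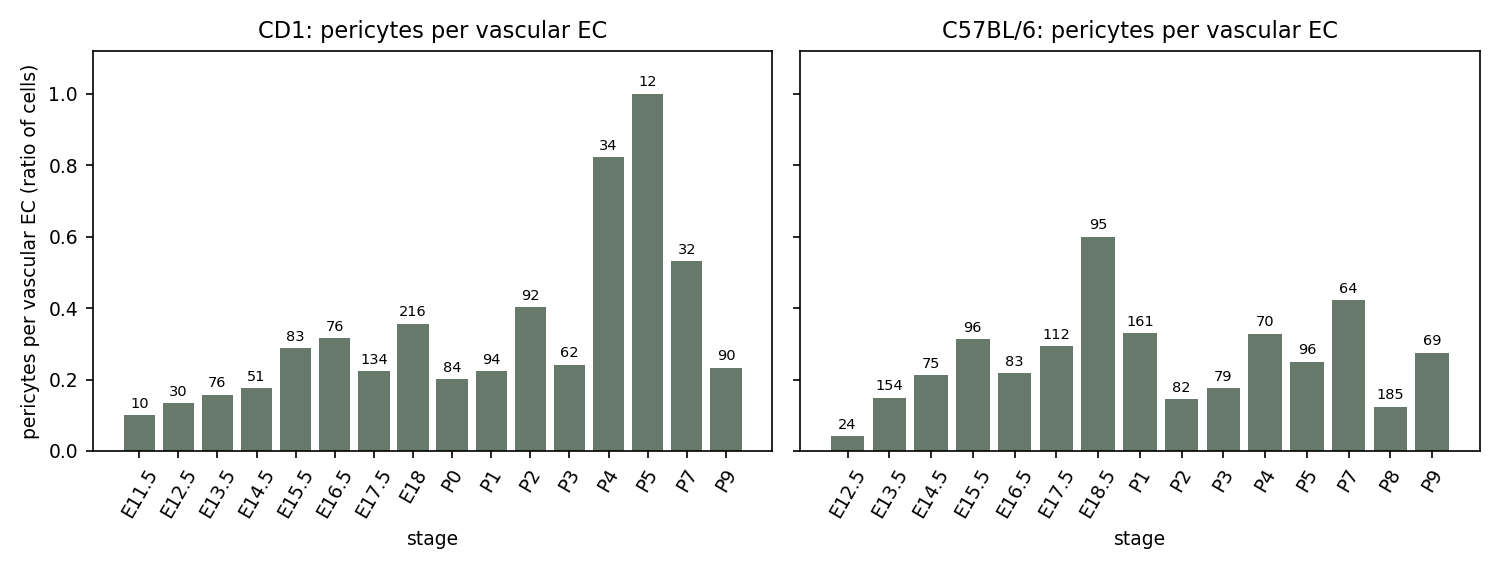
Pericytes per vascular EC (y axis, a ratio of cell counts) at each stage with at least 10 vascular ECs (x axis), with the number of vascular ECs over each bar. The ratio is at most 0.18 up to E14.5 in CD1, and the postnatal peaks at P4 and P5 rest on 34 and 12 vascular ECs.

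The right atrium stood apart from the other zones in this ratio. Over all stages of CD1 there were 15 pericytes to 153 vascular ECs in the RA, a ratio of 0.098 (interval 0.054 to 0.17), against 0.33 (0.20 to 0.52) in the LA, 0.28 (0.23 to 0.33) in the LV and 0.40 (0.33 to 0.49) in the RV. In C57BL/6 there were 20 to 267 in the RA, a ratio of 0.075 (0.045 to 0.12), against 0.38 (0.24 to 0.59), 0.33 (0.27 to 0.39) and 0.28 (0.23 to 0.33). The RA had the lowest ratio of the 4 zones in each of the 5 experiments, from 0.053 in C57BL/6 at P5 to P9 to 0.32 in CD1 at P2 to P9, where the LV also came to 0.32. The RA was not the lowest in the embryo alone, where the LA held 0 pericytes to 19 vascular ECs in CD1 and 3 to 24 in C57BL/6. Within single experiments intervals also overlapped. In C57BL/6 at E10.5 to P4 that of the RA (0.058 to 0.25) overlapped those of the LA (0.096 to 0.43) and the RV (0.21 to 0.31). In CD1 at P2 to P9 it was 0.10 to 0.82 and overlapped those of all other zones. The zones also differ in stage: 119 of the 267 C57BL/6 RA cells came from P8 and 48 from P9, where the LA held 1 and 2. The intervals were computed as exact binomial ones for the share of pericytes among both types. This comparison was chosen after the values were seen and is given without a test.

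**Figure D3:**
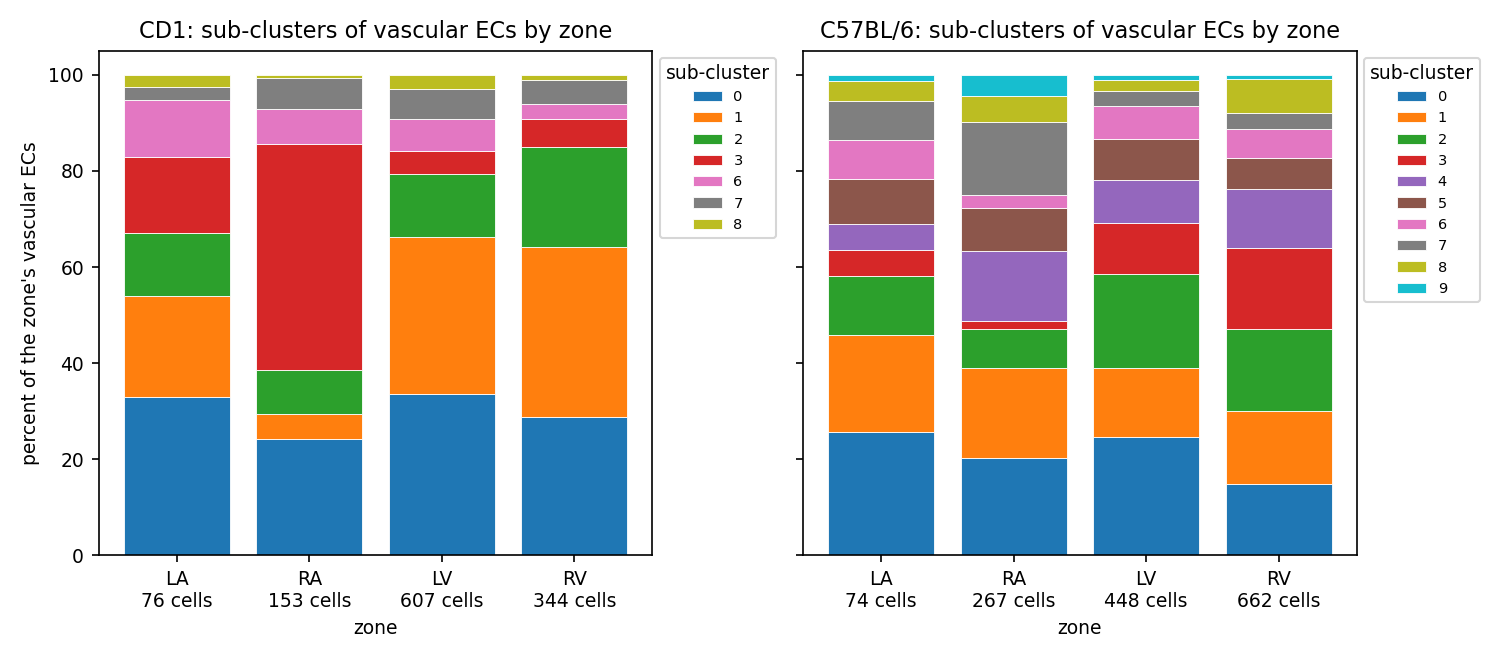
Percent of the vascular ECs of each zone (y axis) in each of the study's sub-clusters (colours) in CD1 and C57BL/6, with the number of vascular ECs under each zone. Sub-cluster 3 takes 47.1% of the vascular ECs of the RA in CD1, and sub-cluster 7 takes 15.4% in C57BL/6; the numbers of the sub-clusters do not correspond between the strains.

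The study divided the vascular ECs into 7 retained sub-clusters in CD1, with 25 to 365 cells, and 10 in C57BL/6, with 24 to 281 cells. The sub-clusters were made from expression, separately in each strain, and are described here by zone, stage and cell measures without a test. In CD1 sub-cluster 3 was the one with the largest atrial part, and was picked for that. Of its 133 cells, 72 came from the RA, 12 from the LA, 29 from the LV and 20 from the RV, so that 63.2% were atrial against 19.4% of all vascular ECs. It held 72 of the 153 vascular ECs of the RA (47.1%, exact 95% interval 38.9 to 55.3%) and 12 of 76 of the LA (15.8%, 8.43 to 26.0%), but 29 of 607 of the LV (4.78%, 3.22 to 6.79%) and 20 of 344 of the RV (5.81%, 3.59 to 8.84%).

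In C57BL/6 the atrial part was largest in sub-clusters 7 (56.0% of 84 cells) and 9 (54.2% of 24 cells, with 12 of the 24 from the RA). Sub-cluster 7 took 41 of 84 cells from the RA and held 15.4% of the vascular ECs of the RA (11.3 to 20.2%), 8.11% of those of the LA (3.03 to 16.8%), 3.13% of the LV (1.72 to 5.19%) and 3.47% of the RV (2.21 to 5.17%). By stage, CD1 sub-cluster 3 took 13 of 23 atrial cells at E17.5, 15 of 26 at E18 and 22 of 47 at P0, and 1 of 7 at P9. In C57BL/6 sub-cluster 7 took 5 of 27 atrial cells at E17.5, 15 of 120 at P8, and 0 of 13 and 0 of 17 at P3 and P4. Both sub-clusters drew cells from all wells and from at least 15 stages. They also had the highest median ribosomal percent of their strain, 22.6% and 24.4% of UMIs, against 19.8% and 20.7% over all vascular ECs. In CD1 it was above that of the other sub-clusters on both sides, at 22.7% against 19.9% in the atria and 22.4% against 19.6% in the ventricles. In C57BL/6 it was 24.95% against 20.5% in the atria and 20.8% against 20.3% in the ventricles.

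Other sub-clusters were spread unevenly over stages. In C57BL/6 167 of the 168 cells of sub-cluster 3 were postnatal (99.4%, against 55.5% of all vascular ECs), 112 of them from the RV, and 69 of 73 cells of sub-cluster 8 were postnatal (94.5%). Sub-cluster 3 drew 55 cells from P1 and 35 from P2, and took 42.7% of the vascular ECs at P2 but 5.71% at P4. Sub-cluster 8 drew 28 cells from P2. Each stage and zone of C57BL/6 was a single sample, so stage and sample cannot be told apart. Sub-cluster 4 was early, with 62.8% of its 164 cells from stages up to E14.5 (against 17.8%), and had the highest median count, 20675 UMIs per cell. In CD1 sub-clusters 7 and 8 held no cell from before E15.5, with 67 and 25 cells, and sub-cluster 1 held 6 of 344. The median UMI count per cell ran from 6192 to 19177 over the sub-clusters of CD1 and from 5757 to 20675 over those of C57BL/6, so the division goes along with depth as well as with zone and stage. The part of depth in the division was not tested.

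The vascular ECs held a median of 12590.5 UMIs, 3558.5 detected genes and 4.25% mitochondrial UMIs per cell in CD1 and 10330 UMIs, 3126 genes and 3.49% in C57BL/6. The counts differed between experiments, with medians of 17342 UMIs in the E18 and P1 experiment, 11460 in E9.5 to P3 and 11998.5 in P2 to P9 for CD1, and 11503 and 8375 in the 2 experiments of C57BL/6. Stages were therefore compared within the first experiment of each strain. The experiments also hold different stages, and in the E18 and P1 experiment the median was 19803.5 UMIs at E18 and 7791 at P1. At P2, which 2 CD1 experiments share, the medians were 8021 (E9.5 to P3) and 19471.5 UMIs (P2 to P9). At P1, also shared by 2, they were close, at 8282 (E9.5 to P3) and 7791 UMIs (E18 and P1).

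**Figure D4:**
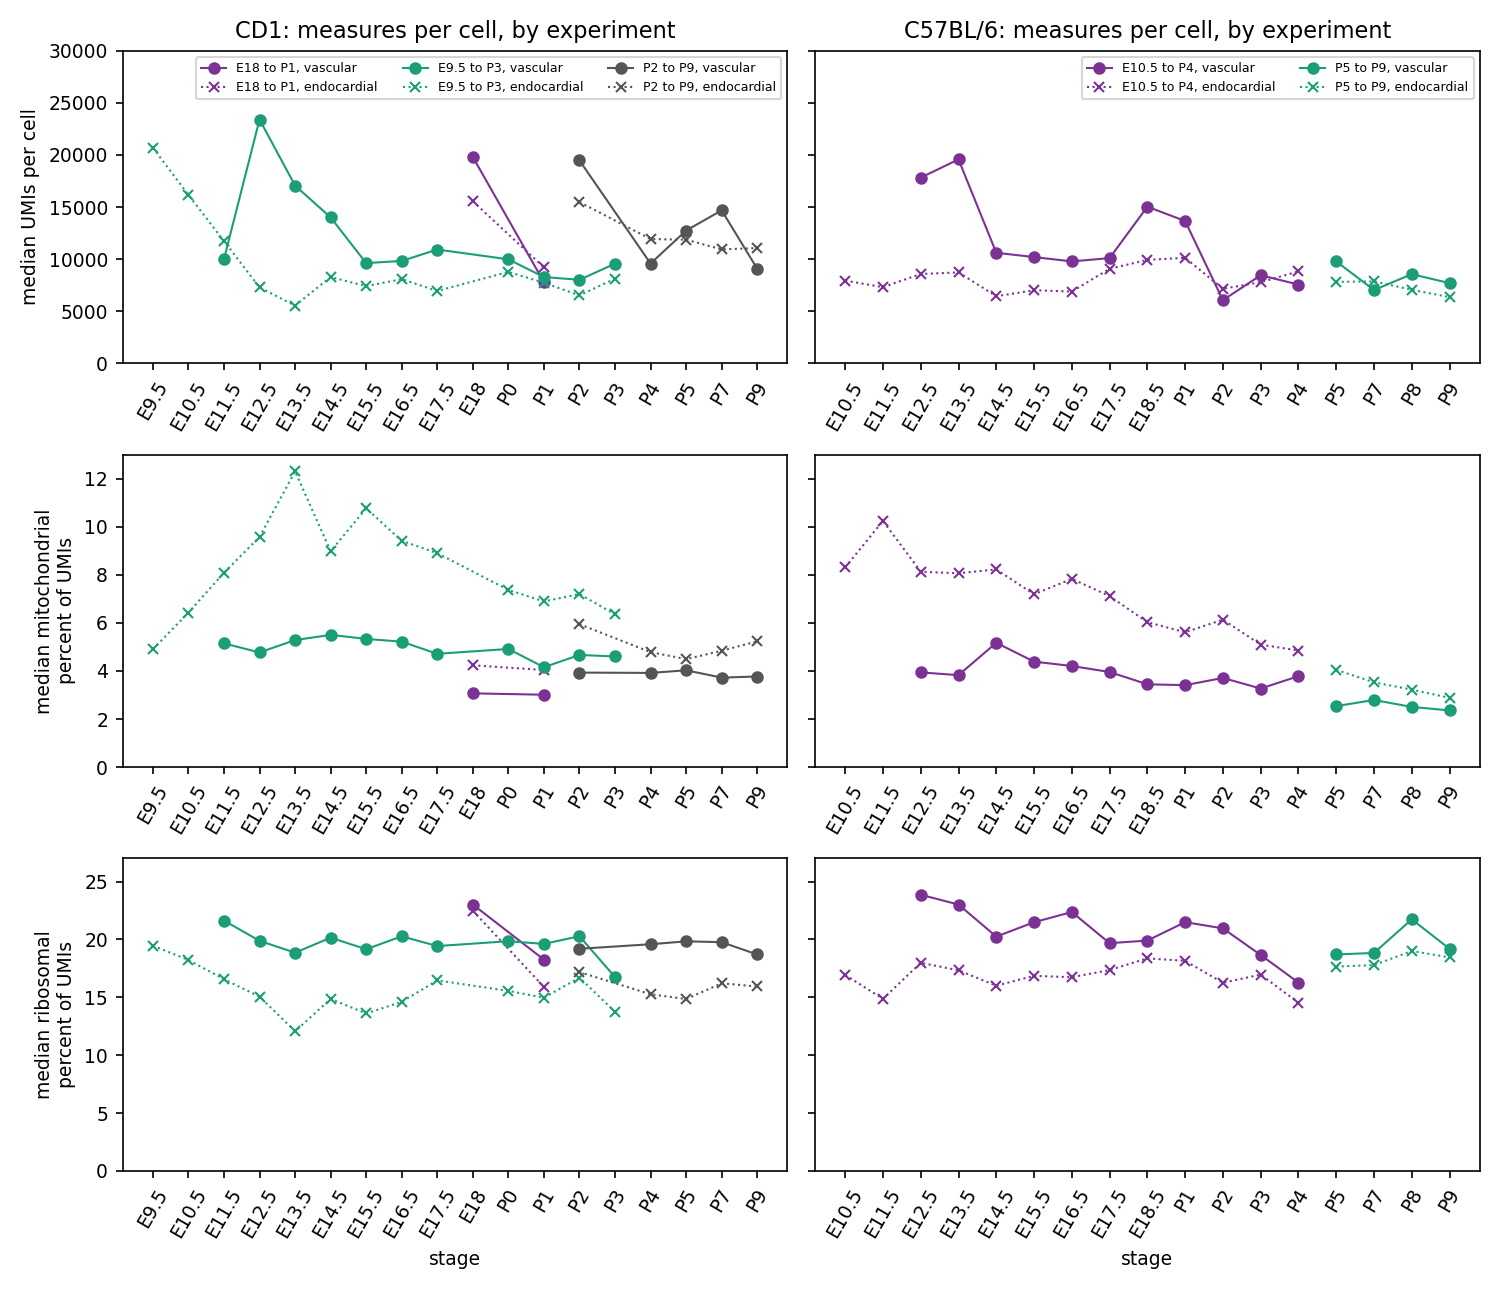
Median UMIs per cell, median mitochondrial percent and median ribosomal percent of UMIs (y axes) by stage (x axes) in vascular ECs (circles, solid lines) and endocardial ECs (crosses, dotted lines), with a colour for each experiment and only groups of at least 10 cells. The mitochondrial percent of vascular ECs lies under that of endocardial ECs, and the ribosomal percent above it, at every experiment and stage shown with both.

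The UMI count per vascular EC was highest at E12.5 in CD1 and at E13.5 in C57BL/6. In CD1 the median was 10001 at E11.5, with 10 cells, 23400.5 at E12.5, 17060.5 at E13.5, 14007 at E14.5 and 9621 at E15.5, and it lay between 8021 and 10925 from E16.5 to P3. In C57BL/6 it was 17823.5 at E12.5, 19573.5 at E13.5 and 10613 at E14.5, rose again to 15036 at E18.5, and was 6063.5 at P2. Over 11 stages rho was -0.78 in CD1 (r = -0.63, permutation p = 0.00620 and 0.0291, adjusted over 6 relations to 0.0372 and 0.0505). In C57BL/6 it was -0.74 (r = -0.68, permutation p = 0.0130 and 0.0214, adjusted p = 0.0391 and 0.0505). With the 2 outermost stages left out r was -0.86 and -0.52, and with all experiments pooled the CD1 rho was -0.37 (adjusted p = 0.158). With means in place of medians the C57BL/6 rho was -0.59 and did not pass (adjusted p = 0.114).

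Detected genes fell with stage in C57BL/6 (rho = -0.65, r = -0.65, n = 11, permutation p = 0.0341 and 0.0343, adjusted p = 0.0409 and 0.0505). In CD1 they did not pass the test (rho = -0.55, r = -0.61, n = 11, permutation p = 0.0820 and 0.0421, adjusted p = 0.0820 and 0.0505). The mitochondrial percent had the same rho of -0.66 in both strains, with r = -0.63 in CD1 and -0.57 in C57BL/6 (permutation p = 0.0309 and 0.0302 for rho, 0.0392 and 0.0586 for r, adjusted p = 0.0409 for both rho values, 0.0505 and 0.0586 for r). Without the 2 outermost stages r was -0.88 for genes in CD1, -0.43 for genes in C57BL/6, and -0.60 and -0.72 for the mitochondrial percent. With means in place of medians, genes in C57BL/6 (rho = -0.51) and the mitochondrial percent in CD1 (rho = -0.52) did not pass (adjusted p = 0.114 for both). The mitochondrial stage medians were 4.16 to 5.50% in CD1 and 3.27 to 5.17% in C57BL/6. Other types were also lower at the last stage. In CD1, from E11.5 to P3, endocardial ECs went from 8.08 to 6.36%, with 12.3% at E13.5, and fibroblast-like cells from 5.03 to 3.64%. In C57BL/6, from E12.5 to P4, they went from 8.13 to 4.85% and from 4.01 to 3.24%. Their relation with stage was not tested. The ribosomal percent of vascular ECs was added after the data were seen. It fell in C57BL/6 from 23.9% at E12.5 to 16.3% at P4 (rho = -0.75, r = -0.79, permutation p = 0.0113 and 0.00285, adjusted over 4 comparisons to 0.0226, and to 0.00570 for r). In CD1 its rho was -0.29 (r = -0.52, permutation p = 0.383 and 0.0892, adjusted p = 0.383 and 0.0892). Without the 2 outermost stages r was -0.59 in C57BL/6 and 0.32 in CD1, where it changed sign. With means the C57BL/6 rho was -0.56 and did not pass (adjusted p = 0.103).

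Compared with endocardial ECs of the same experiment and stage, vascular ECs had a lower median mitochondrial percent in 18 of 18 pairs of CD1 and 15 of 15 of C57BL/6. The differences ran from -7.01 to -0.464 points in CD1, with a median of -2.49, and from -4.23 to -0.522 in C57BL/6, with a median of -2.42. Their ribosomal percent was higher in the same 18 and 15 pairs, by a median of 4.30 and 2.74 points. The UMI count was higher in 14 of 18 and 12 of 15 pairs, with a median ratio of 1.22 and 1.25. Fibroblast-like cells, by contrast, had a median mitochondrial percent under that of vascular ECs in 17 of 18 pairs of CD1, by a median of 0.584 points, and in 9 of 15 of C57BL/6. These values are a description, since the same cells were clustered on their expression.

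Between the sides of the CD1 heart, the UMI count per vascular EC was lower in the ventricles at most stages. At the 7 stages with at least 10 vascular ECs on each side, the atrial median was higher at 6, from 15798.5 against 9138 UMIs at E15.5 to 20258 against 18900 at P2, and lower only at E18, at 19406 against 19803.5. The mean difference, ventricular minus atrial, was -0.43 on the log2 scale (SD 0.29, a ratio of 0.743, exact permutation p = 0.0312, adjusted over 6 comparisons to 0.0625). Detected genes differed by -0.29 on that scale (SD 0.18, exact p = 0.0312, adjusted p = 0.0625). The mitochondrial percent was lower in the ventricles at 7 of 7 stages, 4.33% against 4.98%, a difference of -0.653 points (SD 0.320, exact p = 0.0156, the smallest that 7 stages allow, adjusted p = 0.0625). None of the 3 passed after adjustment at this minimum, and with at least 5 cells on each side (11 stages) all 3 passed (adjusted exact permutation p = 0.00586, 0.00586 and 0.0195). Beside these values, the UMI count of endocardial ECs and of fibroblast-like cells in CD1 was also lower in the ventricles, at 12 of 15 stages each.

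In C57BL/6 the UMI count, detected genes and mitochondrial percent of vascular ECs did not differ between sides in a common direction over 10 stages. The differences were -0.017 (SD 0.48) and -0.062 (SD 0.25) on the log2 scale and 0.060 points (SD 0.55), with exact permutation p of 0.941, 0.436 and 0.740 and adjusted p of 0.941, 0.653 and 0.888. The ribosomal percent was lower in the ventricles at 10 of 10 stages, 19.1% ± 1.66 against 20.9% ± 1.78, a difference of -1.78 points (SD 1.16, exact p = 0.00195, the smallest that 10 stages allow, adjusted over 4 comparisons to 0.00781). Without the samples whose CMs were mostly of the other side it was -1.86 points over 7 stages (exact p = 0.0156, adjusted p = 0.0312), and with at least 5 cells on each side -1.76 points over 12 stages (exact p = 0.0254, adjusted p = 0.0508). In CD1 it was -1.07 points (SD 1.53, lower at 5 of 7 stages, exact p = 0.0938, adjusted p = 0.125). Beside it, the ribosomal percent of endocardial ECs was lower in the ventricles at 9 of 12 stages of C57BL/6, and that of fibroblast-like cells was higher at 9 of 13.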

How the data were processed

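Single cells of mouse hearts, tagged by sample, were profiled in droplets. The authors aligned reads with Cell Ranger 3.1.0 (version per the submitters' processing notes), assigned cells to samples, kept cells with at least 2000 UMIs, 1000 to 8000 genes and at most 30% mitochondrial UMIs, removed doublets, integrated wells with Harmony, clustered and annotated the cells. In CD1 they dropped 3 vascular EC sub-clusters before the type was final, so those cells are not members here. The deposited UMI counts and detected gene counts per cell are not normalized. The deposited mitochondrial and ribosomal values are a percent of UMIs, and the doublet score is as deposited by the authors. The other 94 columns of the 2 tables were not used, and neither were the tables of mutants.

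Shares were computed per sample and averaged over zones with equal weight, leaving out samples with under 10 cells of the denominator. Samples of a stage and zone in 2 experiments were summed. The unit of every test was the stage, since cells are not replicates. A sample pools several hearts, so p-values measure the spread between stages. Relations with stage order used 100000 permutations (exact under 10 stages), differences used exact sign flips, and all tests were two-sided at 0.05 with Benjamini-Hochberg adjustment. They were checked on simulated data. Cell measures were medians over at least 10 vascular ECs. All suspensions passed a cell strainer, and postnatal ventricular ones an additional, coarser one. The paper states that ventricular CMs of late neonatal stages were too large for the droplet device, so fewer were sampled. Large CMs may thus be missing there, and non-myocytes were the main denominator. Names are limited to stages, zones and cell types. The members, the lists and the tests were chosen with earlier results of these data known. The ribosomal percent, the difference of the endothelial share between zones, pericytes by zone and several alternatives were added after seeing the data. Scripts ran in Python 3.11.15 with pandas 2.3.3, scipy 1.17.1 and numpy 2.4.6, and figures were drawn with matplotlib 3.10.9.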

Additional observations from a re-analysis of the deposited data

How the results depend on the processing

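Over 36 results, 289 values were computed under alternatives other than leaving out a stage. Of these, 234 kept their direction and their side of the threshold, 32 no longer passed, 11 came to pass and 12 changed sign. Leaving out each stage in turn gave 233 values, of which 219 kept both. Differences between sides, between left and right and between strains were taken within stages, so the stage already pairs them. The labels give no replicate numbers for a further pairing. The alternative label in C57BL/6 was not run, since that table holds a single final label. Leaving out the largest C57BL/6 RV sample, the samples whose CMs were mostly of the other side or the stages before E12.5, all settings for the ribosomal percent and the restriction to stages with both sides were chosen after seeing the data. The cause of the changes was not tested, except that settings with 4 or 5 stages cannot pass.

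With zones pooled, rho of the share with stage was 0.36 in CD1 and 0.53 in C57BL/6, that of the endothelial share 0.30 and 0.44, and the strain differences were 0.527 points for the share and 0.469 for ventricles minus atria. As a share of all cells the strain difference was -2.40 points. With blood cells left out, rho in C57BL/6 atria was 0.39 and LA minus RA -2.24 points. With at least 20 cells per sample, rho in CD1 was 0.50 for the share and 0.36 for the endothelial share, and LA minus RA in C57BL/6 was -2.41 points. With at least 50, rho was 0.37 in CD1 and 0.52 in C57BL/6 for the share and 0.41 and 0.33 for the endothelial share, whose difference between sides in CD1 was 65.1 points over 5 stages. With at least 4000 UMIs and at most 20% mitochondrial UMIs, rho in C57BL/6 atria was 0.40, LA minus RA -2.29 points and the strain difference in ventricles minus atria 1.11 points.

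Leaving the largest CD1 experiment (E9.5 to P3) out, rho was 0.071 for the share and for the ventricles, -0.14 for the atria and 0.39 for the endothelial share. Without the P2 to P9 experiment it was 0.76 for CD1 atria, and the strain difference was 0.764 points. Without the E10.5 to P4 experiment, 4 stages of C57BL/6 gave 19.1 points for ventricles minus atria, 58.4 for the endothelial share and 3.15 for LV minus RV. Without the P5 to P9 experiment, rho in C57BL/6 atria was 0.51 and the strain difference 0.216 points, and with the first experiments only it was 0.410. Without the stages before E12.5, rho was 0.26 for the CD1 share, 0.34 and 0.42 for the ventricles of CD1 and C57BL/6, 0.48 for C57BL/6 atria and 0.36 for the CD1 endothelial share. Without samples of the other side, rho of the C57BL/6 endothelial share was 0.46, and ventricles minus atria was 0.049 (log2) for UMIs and -0.105 points for the mitochondrial percent in C57BL/6.

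Among cell measures, at least 20 vascular ECs gave rho = -0.88 for genes in CD1 and -1.87 points for the ribosomal difference in C57BL/6 over 4 stages. At least 5 per side gave -0.65 (log2 UMIs), -0.39 (log2 genes) and -0.515 points (mitochondrial) in CD1, and -0.140 (mitochondrial) and -1.76 points (ribosomal) in C57BL/6. Means in place of medians gave rho = -0.59 for UMIs, -0.51 for genes and -0.56 for the ribosomal percent in C57BL/6 and -0.52 for the mitochondrial percent in CD1, none of which passed, and between sides -0.31 (log2 UMIs) and -0.21 (log2 genes) in CD1, which came to pass, and -0.0174 points (mitochondrial) in C57BL/6. With all experiments pooled, rho of UMIs in CD1 was -0.37.

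Leaving out each stage in turn, the strain difference ran from -0.821 to 0.309 points, that in ventricles minus atria from -1.52 to 0.953, LA minus RA from -2.45 to -1.29 in CD1 and from -2.24 to -0.911 in C57BL/6, and the C57BL/6 differences between sides from -0.15 to 0.034 for log2 UMIs and from -0.0280 to 0.173 points for the mitochondrial percent. Ventricles minus atria ran from 13.9 to 15.4 points in CD1 and from 14.0 to 16.7 in C57BL/6. Depth limits what can be said of the atria, where 21 of 32 atrial samples in C57BL/6 and 28 of 36 in CD1 held under 10 vascular ECs.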
